A study of Mus musculus with 4 samples.

Results

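The 10 transcripts described here encode transcription factors, receptors, a signalling phosphoprotein and neuropeptide precursors by which striatal projection neurons are recognised. They were chosen by gene symbol (Drd1, Drd2, Foxp1, Foxp2, Bcl11b, Ppp1r1b, Penk, Tac1, Isl1 and Adora2a), with earlier results of these data known. All 10 were found among the 53379 genes of the table. RNA was recovered by immunoprecipitation with anti-Cpeb4 or anti-IgG control antibodies. The lysates came from the V-SVZ (ventricular-subventricular zone), a neurogenic layer that lines the lateral ventricle, taken from CD1 mice of wild-type genotype aged P7 or P8 (postnatal days 7 and 8). Each of 2 experiments gave 1 Cpeb4 and 1 IgG library, so n = 2 libraries per antibody, and all groups share the same tissue, strain, age and genotype. The labels do not say how many animals entered a lysate or whether the 2 experiments drew on different animals. The p-values therefore refer to the spread among these libraries, part or all of which may be technical.

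Striatal projection neurons are the GABAergic output neurons of the striatum, which lies directly beside the V-SVZ. Those of the direct pathway carry the dopamine receptor Drd1 and the substance P precursor Tac1, whereas those of the indirect pathway carry the dopamine receptor Drd2, the adenosine receptor Adora2a and the enkephalin precursor Penk. Cpeb4 is an RNA-binding protein that recognises short U-rich elements in the 3′ ends of mRNAs and acts on poly(A) tail length and translation. The question of the comparison with IgG was which transcripts Cpeb4 recovers above the background of the procedure.

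The libraries held 22486721 to 35037171 reads on genes, and each of the 10 transcripts rested on 500 to 29260 reads per library. Cpeb4 mRNA itself was at 26.7 and 38.3 FPKM (fragments per kilobase of gene, normalised for depth) in the Cpeb4 libraries and at 9.04 and 9.66 in the IgG libraries. All 10 transcripts exceeded 7 FPKM in every library, and their IgG levels stood between the 51.4th and the 99.4th percentile of the genes tested. They were therefore all in the test, and none entered it through 1 antibody alone. No input library was analysed here, so the level of a transcript in the lysate and its recovery with IgG cannot be told apart, and neither can fewer cells of a type and less RNA per cell.

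With the authors' scaling of the libraries, 7 of the 10 transcripts were higher in Cpeb4 than in IgG immunoprecipitates: Foxp1, Bcl11b, Drd1, Foxp2, Isl1, Adora2a and Tac1. Drd2, Ppp1r1b and Penk were not called. Genes were tested with limma on log2(FPKM + 1) with experiment as a block, and called at a Benjamini-Hochberg adjusted p under 0.05 over all 15745 genes tested. Of all genes tested, 38.8% were called higher and 11.6% lower, and of the 7555 genes within the members' range of IgG level, 46.9% were called higher and 9.32% lower. No member was called lower by limma, also at an unadjusted p under 0.05 (0 members), by limma-voom (0 members) or in the authors' deposited table (0 members). The median log2 fold change of the 10 was 0.48, against 0.19 over all genes tested. Both Cpeb4 libraries stood above both IgG libraries for 7 members and below both for Penk; over all genes tested, 53.2% had both Cpeb4 libraries above and 22.7% had both below.

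**Figure D1:**
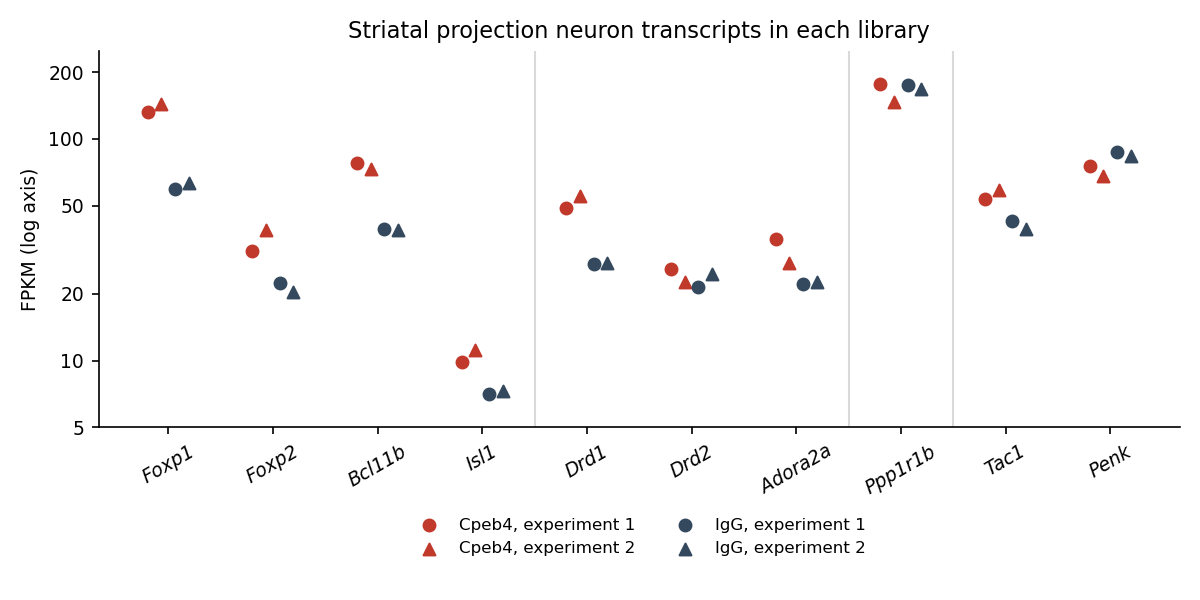
FPKM (log axis) of the 10 transcripts in each of the 4 libraries, ordered by role from transcription factors to receptors, the phosphoprotein Ppp1r1b and peptide precursors; colours mark the antibody and symbols the experiment. The Cpeb4 libraries lie above the IgG libraries for Foxp1, from 133 and 143 against 59.3 and 63.5, and overlap them for Drd2 and Ppp1r1b.

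Several of these calls changed with the scaling. The authors' FPKM carry their size factors. Rescaling to the median of the tested genes, to the upper quartile or to read totals lowered the median log2 fold change of all genes by 0.30, 0.36 and 0.42. The share of higher among called genes was 77.0% with the authors' scaling and 42.6%, 35.6% and 29.3% with the other 3. With the median of tested genes, 4 members were higher and 2 lower, beside 22.9% and 30.8% of all genes. With the upper quartile, 3 were higher and 3 lower, beside 20.6% and 37.2%, and read totals gave 3 and 3, beside 17.5% and 42.4%. Foxp1, Bcl11b and Drd1 were called higher under all 4 scalings, as were 17.3% of all genes tested. Penk and Ppp1r1b, not called with the authors' scaling, were called lower under each of the other 3, as were 30.5% of genes. A scaling shifts all genes by nearly the same amount, and the order of the 10 by fold change was the same under all 4.

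**Figure D2:**
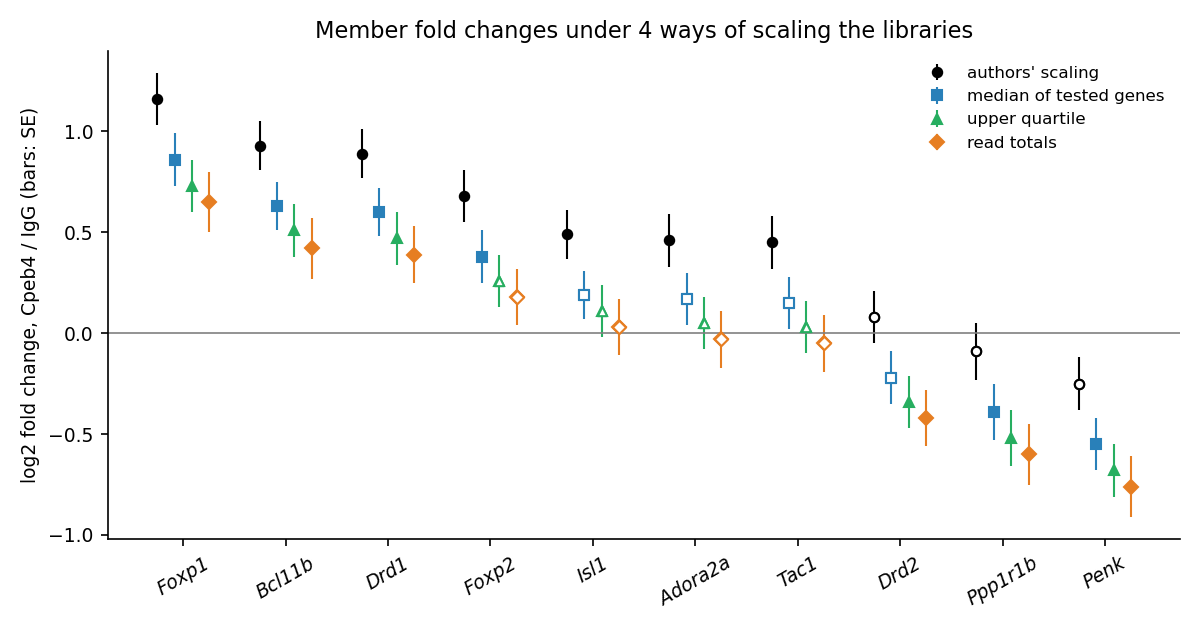
Log2 fold change of Cpeb4 against IgG (bars are the SE from limma) for each transcript under 4 scalings of the libraries; filled symbols passed an adjusted p of 0.05 and open symbols did not. Foxp1, Bcl11b and Drd1 remain above 0 with filled symbols throughout, at 0.39 to 1.16, whereas Drd2 moves from 0.08 to -0.42.

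Among the transcription factors, Foxp1 had the largest difference. Foxp1 (chromosome 6: 98925342 to 99522746, GRCm38.p6), a forkhead factor needed for projection neuron differentiation, was at 133 and 143 FPKM in the Cpeb4 libraries of experiments 1 and 2 and at 59.3 and 63.5 in the IgG libraries. Both Cpeb4 libraries were far above both IgG libraries, and the difference was nearly the same in both experiments (log2 1.15 and 1.16). This is a 2.23-fold difference of FPKM + 1 (log2 1.16, SE 0.13, limma adjusted p = 2.01e-06). It was the second most abundant of the 10 in the Cpeb4 libraries and the third in IgG.

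Bcl11b (chromosome 12: 107910403 to 108004145), the zinc finger factor Ctip2 that marks projection neurons across both pathways, was at 77.7 and 73.4 FPKM with Cpeb4 and at 39.4 and 38.9 with IgG. The libraries of each antibody lay close together, and the groups did not overlap. The difference was 0.93 on the log2 scale (SE 0.12, limma adjusted p = 1.28e-05).

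Foxp2 (chromosome 6: 14901349 to 15441977), the paralog of Foxp1 that is also found in deep cortical neurons, was at 31.2 and 38.9 FPKM with Cpeb4 and at 22.4 and 20.3 with IgG. The groups did not overlap, but the difference was smaller in experiment 1 (log2 0.46) than in experiment 2 (0.90). The difference of 0.68 on the log2 scale (SE 0.13, limma adjusted p = 0.000472) was not called when libraries were scaled to the upper quartile (0.26, limma adjusted p = 0.0875) or to read totals (0.18, limma adjusted p = 0.259).

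Isl1 (chromosome 13: 116298270 to 116309688), a LIM homeodomain factor of direct pathway and cholinergic neurons, was the least abundant member under both antibodies. It was at 9.89 and 11.2 FPKM with Cpeb4 and at 7.04 and 7.33 with IgG. The groups did not overlap (log2 0.49, SE 0.12, limma adjusted p = 0.00368). The call was lost under each of the other 3 scalings (log2 0.03 to 0.19).

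Among the receptors, Drd1 was called higher under all 4 scalings and Drd2 under none. Drd1 (chromosome 13: 54051183 to 54055658), the dopamine receptor that raises cyclic AMP, was at 48.9 and 55.3 FPKM with Cpeb4 and at 27.3 and 27.7 with IgG. Both Cpeb4 libraries were high and the IgG libraries nearly equal. The difference was 0.89 on the log2 scale (SE 0.12, limma adjusted p = 1.80e-05), at the 86.4th percentile of all genes tested.

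Drd2 (chromosome 9: 49340360 to 49408177), the dopamine receptor that lowers cyclic AMP, was at 25.9 and 22.7 FPKM with Cpeb4 and at 21.4 and 24.5 with IgG. The groups overlapped, and the experiments differed in sign (log2 0.26 and -0.11). The log2 fold change of 0.08 (SE 0.13, 95% interval -0.20 to 0.35, limma adjusted p = 0.645) became negative under the other 3 scalings and was called lower when libraries were scaled to the upper quartile (-0.34, limma adjusted p = 0.0304) or to read totals (-0.42, limma adjusted p = 0.00729).

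Adora2a (chromosome 10: 75316877 to 75334792), the adenosine receptor that indirect pathway neurons carry beside Drd2, was at 35.4 and 27.7 FPKM with Cpeb4 and at 22.1 and 22.7 with IgG. The groups did not overlap, although the difference in experiment 1 (log2 0.65) was larger than in experiment 2 (0.28). The difference of 0.46 on the log2 scale (SE 0.13, limma adjusted p = 0.00725) was not called under any of the other 3 scalings and was -0.03 with read totals.

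Because a ratio of 2 genes within a library does not depend on library scaling, the receptors were also compared with each other. The Drd1 to Drd2 ratio of FPKM was 1.88 and 2.44 in the Cpeb4 libraries and 1.28 and 1.13 in the IgG libraries. The Cpeb4 ratios were both higher, by 0.84 on the log2 scale (SD 0.26 for Cpeb4 and 0.13 for IgG). The Drd1 to Adora2a ratio was 1.38 and 1.997 against 1.23 and 1.22, with Cpeb4 experiment 1 close to the IgG values (log2 difference 0.44). With 2 libraries against 2, the two-sided exact permutation test cannot go below p = 0.333, which was the value for all 12 ratios computed here and also after Benjamini-Hochberg adjustment (0.333). The pairs were chosen after their values were seen, and a ratio shows unequal change, not which gene changed.

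Ppp1r1b (chromosome 11: 98348406 to 98357796), which encodes DARPP-32, the phosphoprotein through which dopamine acts on protein phosphatase in both pathways, was the most abundant member under both antibodies. It was at 177 and 147 FPKM with Cpeb4 and at 175 and 168 with IgG. Its highest and its lowest value were both in Cpeb4 libraries, so the groups overlapped. It was not called (log2 -0.09, SE 0.14, 95% interval -0.38 to 0.21, limma adjusted p = 0.628), but was called lower under the other 3 scalings (log2 -0.60 to -0.39). The noncoding gene 1700003D09Rik overlaps Ppp1r1b in the RefSeq annotation, at 2.70 to 4.01 FPKM. Reads from the shared stretch cannot be assigned to either, since the kit used keeps no strand. Annotated noncoding genes or pseudogenes also overlap Drd2, Foxp1 and Foxp2, but no level could be matched to them by symbol.

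Of the peptide precursors, Tac1 was called higher with the authors' scaling and Penk was not called. Tac1 (chromosome 6: 7555061 to 7562978), the precursor of substance P, was at 53.4 and 59.0 FPKM with Cpeb4 and at 42.4 and 39.2 with IgG. The groups did not overlap (log2 0.45, SE 0.13, limma adjusted p = 0.00752), and the call was lost under the other 3 scalings, with -0.05 for read totals. Penk (chromosome 4: 4133536 to 4138815), the precursor of the enkephalins, was at 75.9 and 67.7 FPKM with Cpeb4 and at 87.2 and 83.8 with IgG.

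Penk was the only member with both Cpeb4 libraries below both IgG libraries. Its log2 fold change was -0.25 (SE 0.13, 95% interval -0.52 to 0.02, limma adjusted p = 0.116), and it was called lower under the other 3 scalings (log2 -0.76 to -0.55). The Tac1 to Penk ratio was 0.703 and 0.871 in the Cpeb4 libraries and 0.487 and 0.467 in the IgG libraries, 0.71 higher with Cpeb4 on the log2 scale (exact permutation p = 0.333).

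Relative to Ppp1r1b within each library, 8 of the other 9 transcripts were higher in both Cpeb4 libraries than in both IgG libraries, and Penk was lower in both. Of the 15744 other genes tested, 57.5% were higher and 18% lower in the same way relative to Ppp1r1b, whose own fold change stood at the 27.7th percentile of all genes. Foxp1 was at 0.749 and 0.974 times the Ppp1r1b level with Cpeb4 and at 0.338 and 0.377 times with IgG, the largest change of the 9. For Drd2 the separation was narrow, at 0.146 and 0.154 against 0.122 and 0.146. Cpeb4 experiment 2 had the higher ratio for each gene other than Adora2a, and the lower Ppp1r1b value of the 2 Cpeb4 libraries.

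**Figure D3:**
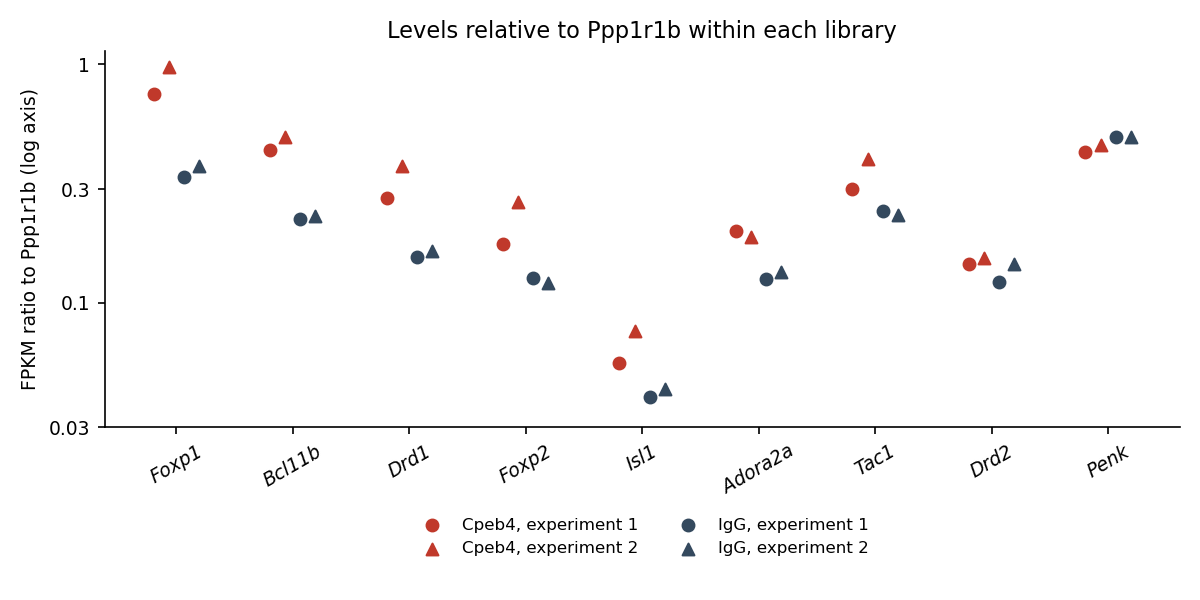
FPKM of 9 transcripts divided by that of Ppp1r1b in the same library (log axis), which removes any scaling between libraries; colours mark the antibody and symbols the experiment. Foxp1 moves from 0.338 and 0.377 in IgG to 0.749 and 0.974 in Cpeb4, while Penk is slightly lower with Cpeb4, at 0.428 and 0.460 against 0.497 and 0.498.

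The order of abundance differed between antibodies. With IgG it ran from Ppp1r1b (172 ± 4.97 FPKM, mean ± SD, n = 2) and Penk (85.5 ± 2.38) through Foxp1, Tac1, Bcl11b, Drd1, Drd2, Adora2a and Foxp2 to Isl1 (7.18 ± 0.204). The values of Tac1 and Bcl11b overlapped, as did those of Drd2, Adora2a and Foxp2 from one to the next. With Cpeb4 it ran from Ppp1r1b (162 ± 21.3) and Foxp1 (138 ± 7.49) through Bcl11b, Penk, Tac1, Drd1, Foxp2, Adora2a and Drd2 to Isl1 (10.5 ± 0.906). There the values of Bcl11b and Penk, of Tac1 and Drd1, and of Foxp2 and Adora2a overlapped. Penk thus stood above Foxp1 in both IgG libraries and below it in both Cpeb4 libraries.

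The 4 members with the greatest lengths implied by the FPKM had the 4 largest fold changes. Such a length is the one by which the FPKM were divided, which need not be that of the transcripts present. Lengths were computed from the FPKM and the reads by taking the library size in the FPKM as the size factor times the geometric mean of read totals, which no header states; another constant would change all lengths by 1 factor and leave their order. The length implied in this way was 8125 bases for Bcl11b, 7189 for Foxp1, 6772 for Foxp2 and 3582 for Drd1, all above the median of 3059 for tested genes. The other 6 were below it, from 1451 for Penk to 2600 for Adora2a. Across the 10 members, log2 fold change and log2 length had a Pearson correlation of 0.84 (Spearman 0.89), and across 15633 tested genes with a length 0.33 (Spearman 0.30); these points share the same 4 libraries. Among tested genes at least as long as Drd1, 51.6% were called higher and 6.02% lower, against 30.6% and 14.8% of shorter genes. The part of length in the members' differences was not tested.

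**Figure D4:**
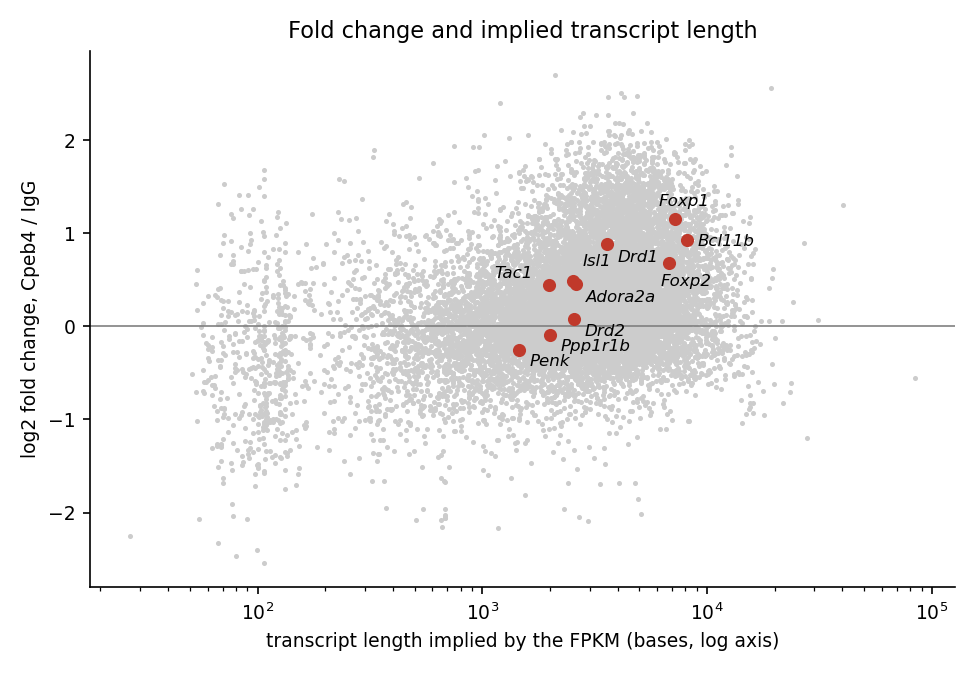
Log2 fold change of Cpeb4 against IgG against the length implied by the FPKM (log axis, labelled transcript length) for tested genes (grey) and the 10 striatal transcripts (red, named). Bcl11b, Foxp1 and Foxp2 lie at 6772 bases and above with log2 fold changes of 0.68 to 1.16, and Penk, at 1451 bases, is the lowest.

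Other genes known from these neurons were read from the same fit. Of 19 further genes shared by projection neurons of both pathways, 9 were called higher and 10 were not called, with a median log2 fold change of 0.35; 7 were higher under all 4 scalings. Over all genes tested, 38.8% were called higher (46.9% at IgG levels like those of the members), 17.3% were higher under all 4 scalings and the median was 0.19. The same shares stand behind the smaller lists that follow, and nothing particular to any list was tested. Arpp21, which encodes a cyclic AMP-regulated phosphoprotein, was at 382 and 434 FPKM with Cpeb4 and at 119 and 116 with IgG (log2 1.79, SE 0.14, limma adjusted p = 1.09e-07). The cannabinoid receptor Cnr1 was at 27.5 and 36.3 against 13.9 and 13.3 FPKM (log2 1.16), the GABA-synthesising enzyme Gad2 at 71.7 and 76.4 against 38.5 and 38.5 (log2 0.93), and the olfactory type G protein Gnal at 185 and 201 against 97.2 and 102 (log2 0.95). Each of these 4 was called higher under all 4 scalings.

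Other abundant signalling genes of the list did not pass the test. The G protein subunit Gng7 (log2 -0.03), the adenylyl cyclase Adcy5 (-0.14) and the phosphodiesterase Pde1b (-0.20), named after their values were seen, were not called with the authors' scaling. None of the 19 was called lower by limma, also at an unadjusted p under 0.05 (0 in each). Limma-voom and the authors' deposited table also gave 0 lower. Scaling to the median of tested genes, the upper quartile and read totals gave 5, 7 and 7 lower beside 8, 7 and 7 higher. Over all genes, the same scalings gave 30.8%, 37.2% and 42.4% lower beside 22.9%, 20.6% and 17.5% higher.

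Of 6 further direct pathway genes, 5 were called higher and 1 was not called, and 0 were higher under all 4 scalings. Their median log2 fold change was 0.56 with the authors' scaling and 0.10 to 0.26 under the other 3. The factor Ebf1 had a log2 fold change of 0.70, Slc35d3 0.69, the factor Eya1 0.62 and the dynorphin precursor Pdyn 0.50 (limma adjusted p between 0.000182 and 0.00288). Of 3 further indirect pathway genes tested, 1 was called higher, the zinc finger factor Sp9 (log2 0.66, limma adjusted p = 0.000284), and 2 were not called (median log2 0.29, negative under the other 3 scalings at -0.09 to -0.01). No gene of either list was called lower by limma, also at an unadjusted p under 0.05 (0 in each). Limma-voom and the authors' deposited table also gave 0 lower in each list. Read totals gave 1 lower in each list, and the upper quartile gave 1 lower in the indirect list. Over all genes, these 2 scalings gave 42.4% and 37.2% lower. Whether the pathways differ was not tested.

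Of 16 paralogs of the members, 6 were tested and 8 stayed below 1 FPKM in every library. Bcl11a, the paralog of Bcl11b, was higher at 31.4 and 40.6 FPKM with Cpeb4 against 17.5 and 17.6 with IgG (log2 0.98, SE 0.13, limma adjusted p = 1.04e-05), also under all 4 scalings. The adenosine receptor Adora2b (log2 0.63) and Pdyn, a relative of Penk (log2 0.50), were higher with the authors' scaling, and 3 were not called. The median log2 fold change of the 6 was 0.31 with the authors' scaling and 0.01, -0.10 and -0.18 with the other 3. No paralog was called lower by limma, at an unadjusted p under 0.05, by limma-voom or in the authors' deposited table (0 in each). The other scalings gave 1 to 3 lower and 1 to 2 higher, beside 30.8% to 42.4% and 17.5% to 22.9% of all genes.

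**Figure D5:**
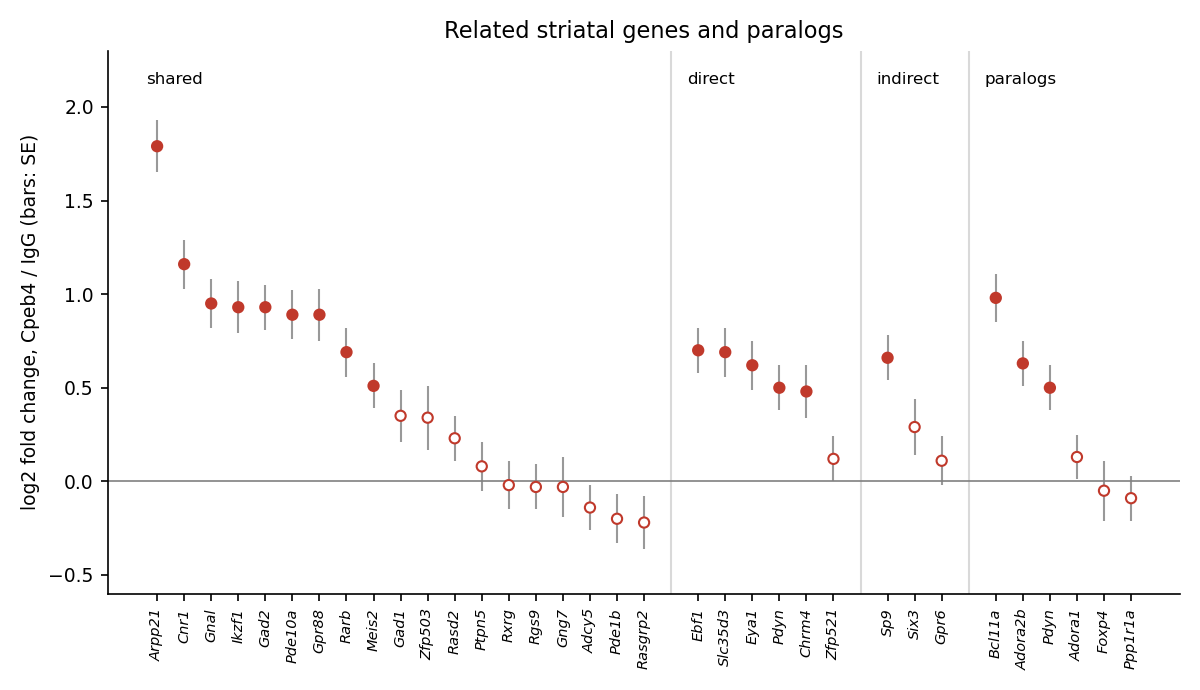
Log2 fold change of Cpeb4 against IgG with the authors' scaling (bars are the SE from limma) for further striatal genes and for paralogs that passed the filter; filled symbols passed an adjusted p of 0.05. Values run from -0.22 for Rasgrp2 to 1.79 for Arpp21, and 5 of 6 direct pathway genes are filled.

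Genes of other cells were measured beside them. The summed FPKM of the 10 striatal transcripts was 647 and 668 with Cpeb4 and 496 and 504 with IgG. Markers of neuroblasts and olfactory bulb interneurons, which include Cd24a and Tubb3, summed to 613 and 636 against 421 and 423 (5 of 10 called higher, 1 lower). Astrocyte markers such as Slc1a3 and Aldoc summed to 869 and 908 against 509 and 539 (2 of 5 higher, 0 lower). Cholinergic and medial interneuron markers, led by Npy and Sst, summed to 97.9 and 101 against 121 and 139 (2 of 7 higher, 2 lower). Npy alone was at 56.8 and 57.6 against 97.9 and 80.2 FPKM. The 2 lower were Npy (log2 -0.62) and Pvalb (-0.68), and the 2 higher were Slc5a7 (0.84) and Lhx8 (0.45). Chat and Slc18a3 stayed below 1 FPKM in every library and were not tested. Genes of this list other than Npy and Sst were named after their values were seen.

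Cortical glutamatergic markers, led by Slc17a7 and Neurod6, were low at 34.5 and 36.1 against 29.1 and 29.2 (3 of 7 higher, 0 lower). Midbrain dopamine neuron markers, led by Slc18a2 and Ddc, summed to 20.7 and 24.99 against 12.8 and 13.3 (2 of 4 higher, 0 lower). Microglia markers such as P2ry12 and Csf1r summed to 132 and 132 against 108 and 115 (1 of 5 higher, 2 lower). The 1 higher was P2ry12, at 54.5 and 66.5 against 26.4 and 23.7 FPKM (log2 1.23). The 2 lower, named after their values were seen, were Cx3cr1 (log2 -1.02) and Tmem119 (-0.32), both lower under all 4 scalings. Markers of choroid plexus and blood, led by Hba-a1 and Hbb-bs, whose reads near-identical globin copies share, summed to 204 and 229 against 264 and 290 (0 of 5 higher, 3 lower). Endothelial markers such as Cldn5 and Ly6c1 summed to 25.3 and 32.5 against 32.2 and 34.3 (0 of 4 higher, 1 lower). These are limma counts with the authors' scaling, where each 0 was also 0 at an unadjusted p under 0.05, by limma-voom and in the authors' deposited table. Some other counts were smaller in the authors' deposited table, where 21.7% of genes were higher and 4.93% lower. There the cholinergic and medial interneuron list had 1 higher and 1 lower, and the cortical list 1 higher. Lower calls there were 0 for the neuroblast list, 1 for microglia and 2 for choroid plexus and blood. Under the other 3 scalings, 1 to 3 astrocyte, 1 to 3 cortical and 1 to 2 midbrain markers were called lower. Lower calls there also numbered 4 to 5 for the neuroblast list and 3 for the cholinergic and medial interneuron list. They numbered 3 to 4 for microglia, 3 to 4 for choroid plexus and blood and 2 to 3 for endothelium. Higher calls there numbered 4 to 5 for the neuroblast list and 2 for astrocytes. They numbered 1 for each of the cortical, midbrain, cholinergic and microglia lists, and 0 for choroid plexus and blood and for endothelium. Over all genes, these scalings gave 30.8% to 42.4% lower and 17.5% to 22.9% higher. None of these markers was at 0 in all libraries. Their part in the members' differences was not tested.

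In the authors' deposited table, the same 7 members were higher at an adjusted p under 0.05, as were 21.7% of the 22709 genes with an adjusted p there; 0 members and 4.93% of genes were lower. The log2 fold changes of the authors' deposited table were 1.16 for Foxp1, 0.94 for Bcl11b and 0.91 for Drd1.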

How the data were processed

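RNA from 4 immunoprecipitates was sequenced, with cDNA from the SMART-Seq v4 kit and Nextera XT libraries per the labels' protocols. The submitters' processing notes name STAR 2.6.0c, HTSeq 0.6.1p2, DESeq2 1.26.0 and mm10, with no role or setting. The deposited table holds FPKM per library and, per the file headers, the authors' comparison: a mean level (signal, reads divided by size factors), the log2 fold change and its SE, a score (their quotient), the p-value and the adjusted p-value. It held 0 columns of other samples. Steps of the FPKM joined to the mean level gave whole reads, to within 0.01 read, at 100% of values (100% of reads recovered from simulated tables that started from 30000 genes). These reads gave depths, implied lengths and limma-voom; intervals cover these libraries only.

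Genes with at least 1 FPKM in at least 2 libraries were tested on log2(FPKM + 1), which understates changes of low genes, with limma 3.58.1 (R 4.3.3), a trended prior and experiment as a block, since the labels number experiments across antibodies and the table is named for a batch. Same-numbered libraries did not deviate together (correlation 0.002 across genes). Tests were two-sided. The block left 1 residual degree of freedom, and the prior added 14.6. On simulated tables of 15745 genes, 200 of them changed, limma recovered 100% of genes changed by 1 and 100% changed by 2 (log2), and 5.28% of calls were unchanged genes. Changes below 1, the size seen for all members but Foxp1, were not simulated, so recovery at that size is not known. Far more genes were called in the data than were changed in the simulation, so its share of false calls need not apply. Replicates were not 1 library given 2 times (chi-square per degree of freedom 23.0 for Cpeb4, 4.97 for IgG).

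The members and lists were chosen with earlier results of these data known. Named were all members, up to 4 called genes per related list and direction by adjusted p, 2 markers per list by level, and the 3 genes nearest Drd1 and Drd2; exceptions are stated. Gene Gpr52 of the indirect pathway list was not matched by symbol. Coordinates are RefSeq's for GRCm38.p6. Results for oligodendrocyte markers are not reported here.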

Additional observations from a re-analysis of the deposited data

How the results depend on the processing

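Other scalings moved the calls most. Scaling to read totals, the upper quartile and the median of tested genes gave 2759, 3240 and 3607 genes higher and 6670, 5856 and 4857 lower (6106 and 1822 with the authors' scaling), and 3, 3 and 4 members higher with 3, 3 and 2 lower. Under these scalings Drd2 was at log2 -0.42, -0.34 and -0.22, and with read totals Tac1 was at -0.05 and Adora2a at -0.03. Without a filter on low values, 3915 genes were higher and 875 lower, and 4 members were higher; Isl1, Adora2a and Tac1 were not called (limma adjusted p between 0.0523 and 0.0999). With a minimum of 5 FPKM, 937 genes were lower. Leaving out 1 library, where no block could be fitted and the lone library is assumed to vary like the complete pair, gave 3977 to 6534 genes higher and 867 to 2497 lower, and 4 to 7 members higher and 0 to 2 lower. Without IgG replicate 1 or without IgG replicate 2, 4 members were higher (Isl1, Adora2a and Tac1 were lost), and without Cpeb4 replicate 1 Penk (-0.33) and Ppp1r1b (-0.22) were called lower. Over the left-out libraries Drd2 ranged from -0.02 (without IgG replicate 1; -0.01 without Cpeb4 replicate 1) to 0.17, and Ppp1r1b from -0.22 to 0.05 (without Cpeb4 replicate 2). The causes of these losses were not tested. With no replicate block, 6007 genes were higher and 1714 lower, and the same number of members, 7, was higher. The limma adjusted p of each of these 7 was larger without the block. It was 0.000192 for Foxp1 (2.01e-06 with the block), 0.000309 for Bcl11b (1.28e-05) and 0.000471 for Drd1 (1.80e-05). The largest of the 7 was 0.0216 for Adora2a (0.00725 with the block). Foxp1, Bcl11b and Drd1 kept their direction and call under all alternatives run. Of 120 member values under alternatives, 86 kept direction and side of the threshold. A further 18 kept direction but lost a call, and 8 kept direction and gained one. The remaining 8 changed sign. Among these, Tac1 and Adora2a with read totals also lost their call, and Drd2 gained a lower call with read totals and with the upper quartile. Reads set no limit for the members, at 500 or more per library; 2 libraries per antibody do.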

Other observations

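Nearness to Drd1 and Drd2 over the 4 log2(FPKM + 1) values was read among tested genes. Predicted gene symbols (Gm followed by digits, or ending in Rik) were left out. The genes nearest to Drd1 were Metap2 (distance 0.057), Zbtb20 (0.092) and Ube2h (0.12). Those nearest to Drd2 were Kcnj4 (0.089), Raly (0.10) and Ruvbl2 (0.11). Metap2 was at 49.1 and 54.0 FPKM with Cpeb4 and at 28.1 and 28.2 with IgG (log2 0.85). Kcnj4, an inward rectifier potassium channel subunit, was at 25.9 and 23.8 FPKM with Cpeb4 and at 20.8 and 25.4 with IgG (log2 0.10). With 4 libraries, likeness in level and antibody difference is a description only.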
